A study of Mus musculus musculus x Mus musculus castaneus with 12 samples.

Results

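Knockout (KO) of *Kdm6a* was compared with wild type (wt) in male mouse embryonic stem (ES) cells of the BC cross, by bulk RNA-seq of 5 of the 12 samples of the series. BC cells are F1 hybrids with a BL6 mother and a cast father. The groups were male BC wt (n = 2) and male BC KO (n = 3), the latter made up of the clones ΔE1 and ΔE3, with an exonic deletion of *Kdm6a*, and ΔP4, with a promoter deletion. Male CB cells, F1 hybrids with a cast mother and a BL6 father, served for a test of the difference between crosses only (n = 2 for CB wt and n = 3 for CB KO, with ΔE2.5 and ΔE2.7 as exonic and ΔP2.1 as promoter clones). Every sample is labelled as ES cells grown with LIF and serum on inactivated fibroblast feeder cells, which were reduced by attachment to gelatin before RNA was collected. The age at which the lines were derived is not given in the sources used here. Each KO sample is a single-cell-derived clone of edited cells, and the study states that ΔE1 and ΔE3 have the same breakpoints and stem from 1 editing event. The 3 clones therefore stand for 2 editing events, although each enters the tests as a replicate. ΔE1 and ΔE3 also share a deletion of the X-linked genes *Sh3kbp1*, *Map3k15* and *Pdha1*, which were left out of all comparisons. *Pdha1*, a subunit of pyruvate dehydrogenase, was at 335 and 359 TPM in wt and at 0.217 (ΔE1), 0.727 (ΔE3) and 384 (ΔP4) TPM in the clones (TPM, transcript abundance scaled by length and library). The libraries held 80880720 and 83497935 fragments in wt, 85698639 in ΔE1, 80321939 in ΔE3 and 82393640 in ΔP4. The study calls the wt samples biological replicates and, in places, clones.

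KDM6A (UTX) removes methyl groups from lysine 27 of histone H3, the mark set by Polycomb repressive complex 2, and belongs to the KMT2C/D complexes that methylate lysine 4 of histone H3 at enhancers. It is encoded on the X chromosome. Its Y-linked homologue UTY has little demethylase activity, and KDM6B is an autosomal demethylase of the same mark. ES cells in LIF and serum move between a naive state, held by factors such as NANOG, ESRRB, KLF4 and TBX3, and a formative state that prepares for differentiation and is marked by FGF5, OTX2, POU3F1 and the de novo DNA methyltransferases.

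The clones were made with Cas9 and pairs of guides whose cut sites flank the part to be removed. The spacers are printed 5′ to 3′ in lower case, with the NGG motif that Cas9 needs beside its target (PAM) in capitals, because they define which part of the gene each clone lacks.
ΔE Left: gaaacctcacgaacccgaaaAGG
ΔE Right: tagcattatctgcataccagAGG
ΔP Left: ggacactgcatgtttgatggAGG
ΔP Right: agctacatactccaaaggagAGG
In GRCm38 (mm10), *Kdm6a* is at chrX:18162575-18279936, plus strand, and its longest RefSeq-matched transcript has 29 exons. The spacer of ΔE Left is at chrX:18163390-18163409, in exon 2 of this transcript, and that of ΔE Right at chrX:18208733-18208752, which overlaps exon 4. The outer ends of this pair are 45.4 kb apart. The spacer of ΔP Left is at chrX:18160528-18160547, 2028 bases upstream of the transcript, and that of ΔP Right at chrX:18164295-18164314, in intron 2. This pair spans 3.8 kb and takes in the transcription start. Spacers and their positions were copied from the guide list of the study, and exons and introns come from the GENCODE annotation of the same build.

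Levels are given in CPM, counts scaled to the size of each library with TMM (trimmed mean of M-values) factors, and levels of different genes are compared only in TPM. *Kdm6a* was at 113 and 118 CPM in wt, 26.2 CPM in ΔE1, 30.6 CPM in ΔE3 and 0.0939 CPM in ΔP4. Every clone lay below both wt replicates, and the promoter clone had almost no fragments, whereas the exonic clones kept part of the fragments, which were counted over the whole gene. The log2 fold change of -2.60 (standard error 1.30) was not called by edgeR (adjusted p = 0.51), whereas without ΔP4 it was -2.02 and called (adjusted p = 0.046). *Uty* was at 18.5 and 19.4 CPM in wt, 22.4 CPM in ΔE1, 4.02 CPM in ΔE3 and 44.3 CPM in ΔP4, so that ΔE3 was low, ΔP4 was high and the groups overlapped. *Kdm6b* was at 87.7 and 68.7 CPM in wt, 55.5 CPM in ΔE1, 63.8 CPM in ΔE3 and 73.8 CPM in ΔP4, and the groups overlapped here too.

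Several libraries differ in ways that the genotype label does not give. On chromosome 8, the median log2 change from the wt mean over 719 tested genes was -0.47 in ΔE1, -0.50 in ΔE3 and 0.03 in ΔP4. Of the fragments with a SNP, the median BL6 share of chromosome 8 genes was 66.7% and 67.1% in wt and 67.7% in ΔP4, but 51.1% in ΔE1 and 51.5% in ΔE3. The exonic clones thus differed from both wt and ΔP4 in level and in allelic share. On every autosome other than 1 and 8, the median BL6 share was between 50.5% and 52.6% in all 5 samples. For chromosome 8 the exonic clones lay within this range, and wt and ΔP4 lay above it. On chromosome 1 the share was between 67.8% and 68.4% in all 5 samples, and the median change was within 0.06 of 0 in every clone. Genes of chromosome 8 were therefore kept apart from the counts and medians of all lists below. The summed levels of marker genes do include such genes, *Zfp42* among them. The 4 tested Y-linked genes were low in ΔE3, with a median log2 change of -2.11 against 0.15 in ΔE1 and 0.63 in ΔP4. For the other chromosomes, no clone had a median further than 0.08 from 0.

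**Figure D1:**
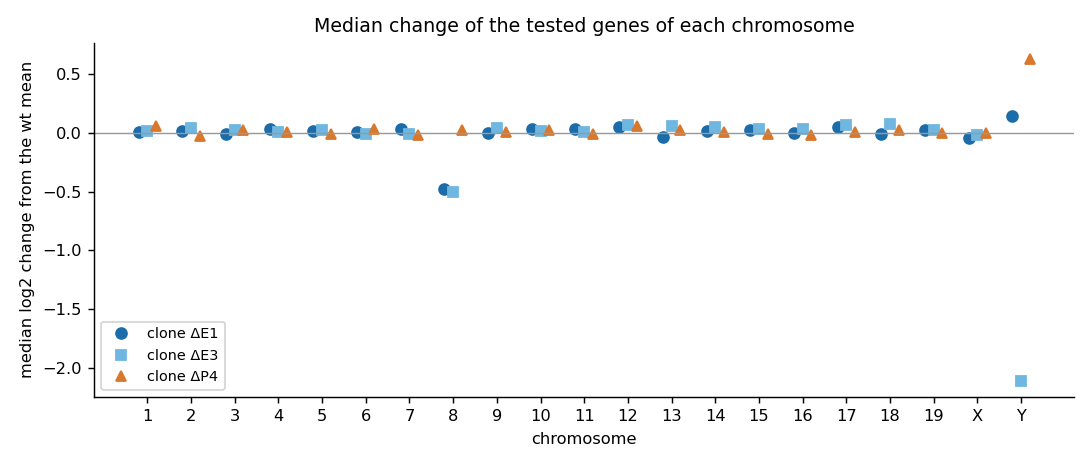
Median log2 change from the wt mean (vertical axis, TMM-scaled CPM with a pseudocount of 0.1) of the tested genes of each chromosome (horizontal axis) in the clones ΔE1 (circles), ΔE3 (squares) and ΔP4 (triangles). Both exonic clones lie near -0.5 on chromosome 8, where ΔP4 lies at 0.03, and ΔE3 lies at -2.11 on the Y chromosome, which has 4 tested genes.

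The labelled cell type was checked against marker genes. The ES cell markers *Pou5f1*, *Nanog*, *Sox2*, *Zfp42*, *Esrrb*, *Klf4*, *Dppa5a* and *Tdgf1* summed to 8162 and 7025 TPM in wt and to 9480.3 (ΔE1), 9516 (ΔE3) and 7105 (ΔP4) TPM in the clones, with *Pou5f1* the most abundant except in ΔE1, where *Dppa5a* was. The 17 markers of fibroblasts, which the feeder layer could contribute, summed to 208 and 206 TPM in wt and to 250.4 (ΔE1), 54.6 (ΔE3) and 179 (ΔP4) TPM in the clones. *Tagln*, a smooth muscle and fibroblast gene, was the most abundant of them, at 90.01 and 92.9 TPM in wt and at 143 (ΔE1), 16.8 (ΔE3) and 98.5 (ΔP4) TPM in the clones, and *Fap*, a defining marker of activated fibroblasts, was at or near 0 in every sample. The sum was lowest in ΔE3, and the high sum of ΔE1 was largely that of *Tagln*. Over all genes tested off chromosome 8, all 3 clones lay below both wt replicates by at least 1.5-fold for 2.93%. They lay above both, by any amount, for 17.9%. Of 11 fibroblast markers tested off chromosome 8, 6 lay below both wt replicates in all 3 clones, each by at least 1.5-fold, and 0 lay above, with a median log2 change of -0.77. By clone, this median was -0.14 in ΔE1, -1.42 in ΔE3 and -1.10 in ΔP4. It was -1.22 without ΔE1, -0.57 without ΔE3 and -0.42 without ΔP4. Trophoblast markers summed to between 9.74 and 18.2 TPM, with *Tpbpa* at 0 in all 5 samples, primitive endoderm markers to between 18.9 and 28.3 TPM, and neural markers to between 7.27 and 26.0 TPM. In bulk RNA, fewer cells of a type and less RNA per cell cannot be told apart. The part of these cells in the results below was not tested.

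In all, 13804 genes passed the filter of 1 TPM in any of the 5 samples and were tested. EdgeR (quasi-likelihood, p-values adjusted by Benjamini-Hochberg) called 3 genes lower (0.0217% of the genes tested) and 1 gene higher (0.00724%) in KO, where a call needs an adjusted p under 0.05 and 1.5-fold or more. At an unadjusted p under 0.05 and the same fold, 289 genes were lower and 534 higher. DESeq2, run on the same genes, called 85 of the 13085 genes off chromosome 8 lower (0.65%) and 152 higher (1.16%), and in all of these the 3 clones lay on one side of both wt replicates. Separation of the groups was therefore used to describe lists, since an exact permutation test of 3 against 2 samples cannot give a two-sided p below 0.2. Over the genes off chromosome 8, all 3 clones lay below both wt replicates for 13.8% of genes and above them for 17.9%, and 2.93% and 5.39% did so with a change of at least 1.5-fold. The median log2 fold change of these genes was 0.02. These shares are the background for every count below.

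The clones differed from wt to different extents. Off chromosome 8, 495 genes were at least 1.5-fold lower than the wt mean in ΔE1, 1157 in ΔE3 and 646 in ΔP4, and 801, 1264 and 1113 were at least 1.5-fold higher. In each of the 3 clones, 114 genes were lower and 194 were higher by this fold. ΔE3 thus had far more genes away from wt than ΔE1, the clone of the same editing event.

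The genes that edgeR called lower were the noncoding RNAs *Meg3*, *Rian* and *Mirg*, which lie next to each other on the plus strand of chromosome 12 between positions 109541001 and 109749460 of GRCm38 and are expressed from the maternal allele. *Meg3*, a long noncoding RNA, was at 28.4 and 24.1 CPM in wt, 0.328 CPM in ΔE1, 0.868 CPM in ΔE3 and 0.376 CPM in ΔP4. Its log2 fold change was -5.65 (standard error 0.40, edgeR adjusted p = 0.0097). *Rian*, the host of small nucleolar RNAs, was at 21.4 and 21.4 CPM in wt, 0.328 CPM in ΔE1, 0.447 CPM in ΔE3 and 0.282 CPM in ΔP4, a log2 fold change of -5.92 (standard error 0.24, edgeR adjusted p = 0.00057). *Mirg*, the host of a microRNA cluster, was at 2.24 and 2.18 CPM in wt, 0.0469 CPM in ΔE1, 0.0496 CPM in ΔE3 and 0.0235 CPM in ΔP4, a log2 fold change of -5.74 (standard error 0.39, edgeR adjusted p = 0.0097). All 3 clones were far below both wt replicates in each of these genes. *Lama1*, on the plus strand of chromosome 17 at 67697259 to 67822647, encodes the laminin alpha chain of the early basement membrane and was the 1 gene called higher. It was at 68.2 and 61.1 CPM in wt, 170.2 CPM in ΔE1, 173 CPM in ΔE3 and 162 CPM in ΔP4, a log2 fold change of 1.38 (standard error 0.11, edgeR adjusted p = 0.018). The clones lay close together and well above wt, but with any 1 of the 5 samples left out edgeR no longer called *Lama1* (adjusted p from 0.071 to 0.49). *Meg3* lost its call without ΔE1 (edgeR adjusted p = 0.082) and without ΔP4 (0.099), *Mirg* without ΔE1 (0.082) or either wt replicate (0.069 and 0.056), and *Rian* kept it throughout.

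The genes with the smallest p among those separated by at least 1.5-fold, at a mean of at least 5 TPM, were of several kinds, and edgeR called none but *Lama1* after adjustment. Among the 10 lower ones, *Dnmt3a*, a de novo DNA methyltransferase, was at 587 and 532 CPM in wt, 307 CPM in ΔE1, 258 CPM in ΔE3 and 255 CPM in ΔP4 (log2 fold change -1.03, standard error 0.12). *Hsd17b11*, a steroid and lipid droplet dehydrogenase, was at 30.4 and 30.8 CPM in wt, 10.7 CPM in ΔE1, 10.98 CPM in ΔE3 and 14.2 CPM in ΔP4 (log2 fold change -1.35). *Wt1*, a zinc finger factor of gonad and kidney, had a log2 fold change of -1.23. *Rxrg* and *Rarg*, nuclear receptors for retinoids, had values of -1.40 and -0.73, *Cacnb3*, a calcium channel subunit, -1.10, and *Egln3*, a prolyl hydroxylase induced by hypoxia, -0.67. *Sox3*, *Foxh1* and *Neurog3* complete the group and are described with their pathways. Among the higher ones, *Frmd5*, a FERM domain protein, was at 11.5 and 10.9 CPM in wt, 23.7 CPM in ΔE1, 23.6 CPM in ΔE3 and 24.6 CPM in ΔP4 (log2 fold change 1.10, standard error 0.13). *Myo6*, a motor that moves towards the minus end of actin, was at 18.2 and 17.5 CPM in wt, 34.5 CPM in ΔE1, 38.4 CPM in ΔE3 and 52.2 CPM in ΔP4. The groups were apart in each, with little spread among clones for *Frmd5* and the highest level in ΔP4 for *Myo6*. *Aldh6a1*, a mitochondrial dehydrogenase of valine breakdown, had a log2 fold change of 1.09, *Sord*, sorbitol dehydrogenase, 0.79, *Gpa33*, an epithelial surface antigen, 0.95, and *Gjb1*, connexin 32, 1.13. *Rnf157*, a ubiquitin ligase, was at 4.88 and 4.62 CPM in wt, 10.98 CPM in ΔE1, 17.9 CPM in ΔE3 and 11.5 CPM in ΔP4. *Adgrb2*, an adhesion receptor, and *Rhbdd1*, a rhomboid protease, had log2 fold changes of 0.82 and 0.71. In DESeq2 all 19 genes other than *Lama1* had an adjusted p under 0.05, the largest at 0.00044.

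Genes of naive pluripotency lay higher in the KO clones. Of 18 list members tested off chromosome 8, 9 lay above both wt replicates in all 3 clones, 8 of them by at least 1.5-fold, and 0 lay below, with a median log2 fold change of 0.40 against 0.02 over all genes. *Tbx3*, a T-box repressor that holds the naive state, was at 13.8 and 12.3 CPM in wt, 26.4 CPM in ΔE1, 46.2 CPM in ΔE3 and 23.1 CPM in ΔP4 (log2 fold change 1.29, standard error 0.31). *Nr0b1* (Dax1), a partner of OCT4, was at 104 and 110.5 CPM in wt, 146 CPM in ΔE1, 369 CPM in ΔE3 and 169 CPM in ΔP4 (log2 fold change 1.09, standard error 0.39), and its log2 fold change was 0.55 without ΔE3. *Nanog*, the homeobox factor of the naive network, was at 170.0 and 195 CPM in wt, 256 CPM in ΔE1, 404 CPM in ΔE3 and 295 CPM in ΔP4. ΔE3, which also had the lowest sum of fibroblast markers and the lowest median of Y-linked genes, was the highest clone for each of these genes, and the part of those traits was not tested. *Klf4*, a LIF-responsive zinc finger factor, was at 67.2 and 63.6 CPM in wt, 111 CPM in ΔE1, 163 CPM in ΔE3 and 95.9 CPM in ΔP4 and *Esrrb*, an orphan nuclear receptor that activates naive genes, had a log2 fold change of 0.80. *Prdm14*, which represses de novo methyltransferase genes, *Tfcp2l1* and *Klf5* had log2 fold changes of 0.65, 0.63 and 0.62, and that of *Klf5* was 0.39 without wt replicate 2. *Pou5f1*, which encodes OCT4 and marks both states, was at 1467 and 1466 CPM in wt, 1355 CPM in ΔE1, 1568 CPM in ΔE3 and 1076 CPM in ΔP4, and the groups overlapped. The list was not uniform, as *Nr5a2*, another nuclear receptor, had a log2 fold change of -0.34, or -0.62 without ΔE3 and -0.21 without ΔE1. EdgeR called 0 of the 18 genes after adjustment, while 8 were at least 1.5-fold higher and 0 lower at an unadjusted p under 0.05, and DESeq2 called 5 higher, namely *Tbx3*, *Klf4*, *Nanog*, *Esrrb* and *Prdm14* (adjusted p from 0.0045 to 0.043). Without ΔE3, 3 members lay above both wt replicates by at least 1.5-fold and 1, *Nr5a2*, lay below, and the median was 0.33. Of the LIF and STAT3 list, 5 of 10 tested genes lay above both wt replicates in all clones and 0 below, all by less than 1.5-fold. They were *Il6st*, the LIF co-receptor gp130, with a log2 fold change of 0.39, *Stat3* itself at 0.19, and the STAT3 targets *Socs3*, *Pim1* and *Pim3* at 0.47, 0.35 and 0.47. Without ΔE3, *Stat3* was at 0.08 and *Socs3* at 0.23, and the list median was 0.21 in place of 0.32.

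Genes of the formative and primed epiblast showed the opposite pattern. Of 17 tested members, 9 lay below both wt replicates in all 3 clones, 7 by at least 1.5-fold, and 0 lay above, with a median log2 fold change of -0.53. *Sox3*, an X-linked SoxB1 factor of the early epiblast and neural plate, was at 15.7 and 15.8 CPM in wt, 6.64 CPM in ΔE1, 7.28 CPM in ΔE3 and 5.11 CPM in ΔP4 (log2 fold change -1.31, standard error 0.19). *Sall2*, a spalt-family zinc finger gene, was at 65.3 and 61.5 CPM in wt, 29.2 CPM in ΔE1, 18.8 CPM in ΔE3 and 33.6 CPM in ΔP4 (log2 fold change -1.22). Every clone was well below both wt replicates for these genes. *Fgf5*, the ligand that defines the primed epiblast, was at 15.7 and 16.5 CPM in wt, 10.3 CPM in ΔE1, 2.89 CPM in ΔE3 and 10.1 CPM in ΔP4, and *Otx2*, a homeobox factor that drives the exit from the naive state, was at 67.9 and 63.9 CPM in wt, 58.7 CPM in ΔE1, 12.6 CPM in ΔE3 and 57.5 CPM in ΔP4. ΔE3 was far lower than the other clones for these genes. *Pou3f1* (Oct6), a POU factor of the formative state, was at 127 and 143 CPM in wt, 98.2 CPM in ΔE1, 48.9 CPM in ΔE3 and 66.5 CPM in ΔP4. *Lef1*, an effector of Wnt signalling, and *Lin28b*, a regulator of let-7, had log2 fold changes of -0.85 and -0.44. EdgeR called 0 of the 17 after adjustment, 5 were lower and 0 higher by 1.5-fold at an unadjusted p under 0.05, and DESeq2 called 4 lower. Without ΔE3, 7 members were at least 1.5-fold below both wt replicates, not counting *Otx2*, whose log2 fold change was -0.18 in place of -0.62, and the median was -0.38.

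The DNA methylation genes differed in part like the formative list. *Dnmt3b*, the second de novo methyltransferase, which also stands in the formative list, was at 650.4 and 646 CPM in wt, 448 CPM in ΔE1, 234 CPM in ΔE3 and 301 CPM in ΔP4 (log2 fold change -0.98, standard error 0.25, DESeq2 adjusted p = 0.017). *Dnmt3a* and *Dnmt3b* were the 2 of 9 tested members below both wt replicates in all clones, and *Tet2*, a dioxygenase that oxidises methylcytosine, was the 1 member above, at 104 and 81.2 CPM in wt, 110.2 CPM in ΔE1, 147 CPM in ΔE3 and 128 CPM in ΔP4. The other 6 members overlapped between the groups, and the list median of -0.17 moved with single samples, as it was -0.03 without wt replicate 1, -0.29 without wt replicate 2, -0.31 without ΔE1 and -0.06 without ΔP4.

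**Figure D2:**
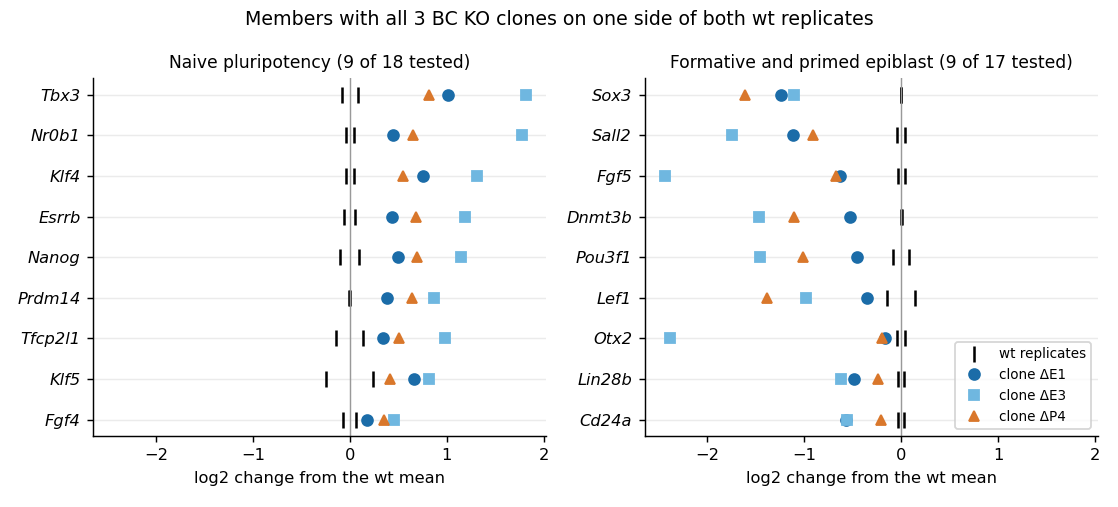
Log2 change from the wt mean (horizontal axis, TMM-scaled CPM with a pseudocount of 0.1) for the members of the naive list (left) and the formative and primed list (right) whose 3 KO clones lay on one side of both wt replicates. Black ticks are the wt replicates, circles ΔE1, squares ΔE3 and triangles ΔP4. The 9 naive genes lie right of both ticks and the 9 formative genes left of them, with ΔE3 the furthest clone for most.

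Targets and inhibitors of NODAL signalling, which maintains the primed epiblast and patterns the streak through SMAD2/3 and FOXH1, lay lower in part. *Foxh1*, the DNA-binding partner of SMAD2/3, was at 73.3 and 69.8 CPM in wt, 35.6 CPM in ΔE1, 23.98 CPM in ΔE3 and 36.96 CPM in ΔP4 (log2 fold change -1.15, standard error 0.20, DESeq2 adjusted p = 7.4e-05). The target genes *Lefty1* and *Lefty2*, secreted inhibitors of NODAL, were at 139 and 148 CPM in wt, 73.2 CPM in ΔE1, 19.7 CPM in ΔE3 and 124 CPM in ΔP4 and at 112 and 113 CPM in wt, 37.5 CPM in ΔE1, 11.9 CPM in ΔE3 and 105 CPM in ΔP4. All 3 clones were below wt for these genes, but ΔP4 came close to wt for both targets and ΔE3 was very low. *Skil*, a SMAD corepressor, had a log2 fold change of -0.52, or -0.80 without ΔE1 and -0.34 without ΔE3. *Nodal* was at 86.5 and 85.6 CPM in wt, 100.1 CPM in ΔE1, 60.4 CPM in ΔE3 and 48.6 CPM in ΔP4, and the groups overlapped. Of 15 tested members of this list, 5 lay below both wt replicates, 4 by at least 1.5-fold, and 0 above, with a median of -0.12. EdgeR called none, with 1 member lower by 1.5-fold at an unadjusted p under 0.05, and DESeq2 called 1, *Foxh1*.

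Primitive streak genes were few and divided. Of 10 tested, 4 lay below and 2 above both wt replicates in all clones, with a median log2 fold change of -0.28. The median was -0.06 without ΔE1, -0.45 without ΔP4 and -0.48 without wt replicate 1. *T* (Brachyury), the T-box factor of nascent mesoderm, was at 6.76 and 6.24 CPM in wt, 4.18 CPM in ΔE1, 2.77 CPM in ΔE3 and 3.04 CPM in ΔP4 (log2 fold change -0.97, DESeq2 adjusted p = 0.023). *Eomes*, a T-box factor of streak and trophoblast, was at 13.1 and 13.9 CPM in wt, 7.95 CPM in ΔE1, 8.54 CPM in ΔE3 and 10.01 CPM in ΔP4 (log2 fold change -0.61, DESeq2 adjusted p = 0.035). *Fgf8*, a streak ligand, had a log2 fold change of -0.99 and *Mixl1* of -0.44. *Foxa2*, a forkhead factor of anterior streak and endoderm, lay the other way at 2.14 and 2.23 CPM in wt, 5.195 CPM in ΔE1, 3.13 CPM in ΔE3 and 2.76 CPM in ΔP4, as did *Tbx6*, at a log2 fold change of 0.60. In the retinoic acid list, 4 of 12 tested genes lay below and 1 above. The receptor *Rarg* was at 206 and 219 CPM in wt, 111 CPM in ΔE1, 142 CPM in ΔE3 and 129.8 CPM in ΔP4 (DESeq2 adjusted p = 0.00044). *Cyp26a1*, which degrades retinoic acid and responds to it, had a log2 fold change of -1.02, *Dhrs3*, which reduces retinal, -0.69, and *Crabp2*, which carries retinoic acid to its receptor, -0.68. The synthesising enzyme *Aldh1a2* lay above wt, at a log2 fold change of 0.47. Without ΔE3 that of *Aldh1a2* was 0.24, and without ΔP4 that of *Dhrs3* was -1.08.

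Of the other signalling lists, Wnt targets and feedback genes had 6 of 13 tested members below and 2 above both wt replicates, with 3 lower by at least 1.5-fold (*T*, *Lef1* and *Notum*, a Wnt deacylase, whose log2 fold change of -0.64 was -0.39 without ΔP4). Among 9 Wnt ligands, *Wnt5b* and *Wnt8a* lay below and 1 above. *Wnt5b*, a noncanonical ligand, was at 2.45 and 2.59 CPM in wt, 1.28 CPM in ΔE1, 1.303 CPM in ΔE3 and 1.26 CPM in ΔP4 (DESeq2 adjusted p = 0.031). FGF and ERK feedback genes had 2 of 16 below and 3 above. Among these, the receptor *Fgfr4* was at 3.500 and 3.04 CPM in wt, 6.29 CPM in ΔE1, 6.96 CPM in ΔE3 and 6.38 CPM in ΔP4 (log2 fold change 1.00, DESeq2 adjusted p = 0.00044) and the ERK phosphatase *Dusp5* at 12.3 and 12.01 CPM in wt, 8.67 CPM in ΔE1, 6.18 CPM in ΔE3 and 8.85 CPM in ΔP4. BMP genes had 3 of 18 below and 2 above, Notch genes 2 of 15 below and 1 above, Hedgehog genes 2 of 8 on each side, immediate early genes 1 of 12 on each side, and aryl hydrocarbon receptor genes 1 of 5 below. Their medians lay between -0.15 (Wnt targets) and 0.20 (aryl hydrocarbon receptor). Both moved with single samples, that of the Wnt targets to -0.08 without wt replicate 1 and -0.09 without ΔE3, and that of the aryl hydrocarbon receptor genes to -0.01 without ΔP4 and 0.12 without wt replicate 2, ΔE1 or ΔE3. Other medians moved as well. Among them, that of the Wnt ligands (0.19) was -0.41 without ΔE1 and 0.37 without ΔP4. That of the Notch genes (-0.08) was -0.21 without ΔP4 and 0.10 without ΔE3.

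In most lineage lists, members lay on both sides of wt. Of the primitive endoderm list, 2 of 9 tested genes lay below and 2 above both wt replicates, among them *Gata4*, a zinc finger factor of endoderm and heart, at 4.36 and 3.92 CPM in wt, 4.89 CPM in ΔE1, 6.98 CPM in ΔE3 and 7.22 CPM in ΔP4, and *Dab2*, an endocytic adaptor, at 39.6 and 38.3 CPM in wt, 20.5 CPM in ΔE1, 27.3 CPM in ΔE3 and 33.1 CPM in ΔP4. Definitive endoderm genes had 2 of 7 above and 0 below, and cardiac and vascular genes 2 of 9 below and 3 above. The neural list had 3 of 9 below and 2 above. *Neurog3*, a basic helix-loop-helix gene of neural and pancreatic endocrine precursors, was at 6.85 and 7.01 CPM in wt, 2.77 CPM in ΔE1, 2.47 CPM in ΔE3 and 1.902 CPM in ΔP4 (log2 fold change -1.54, DESeq2 adjusted p = 2e-06), and *Nes*, the intermediate filament nestin, and *Fabp7*, a fatty acid binding protein of radial glia, had values of -0.72 and -1.05, that of *Nes* being -0.36 without ΔE3 and -1.11 without ΔP4. The neural crest list had 1 of 9 on each side, *Msx1* below and *Zic1* above. Of 11 trophoblast genes, *Eomes* and *Ascl2* lay below and *Tead4*, a TEAD factor of trophectoderm, above, at 19.98 and 18.1 CPM in wt, 25.7 CPM in ΔE1, 38.5 CPM in ΔE3 and 29.2 CPM in ΔP4. Of 19 germline genes that DNA methylation silences, 3 lay below, 2 of them by at least 1.5-fold, and 6 above, 1 of them by at least 1.5-fold. The 13 two-cell-stage genes in the files were all under the level needed for a test. Of 14 epithelial junction and keratin genes, 0 lay on one side, and of 9 mesenchymal genes 2 lay below. Of 16 tested laminins, collagen IV chains and other basement membrane genes, *Lama1* and 2 others lay above and *Lama3*, an epithelial laminin chain, below, at 27.4 and 27.3 CPM in wt, 18.1 CPM in ΔE1, 13.4 CPM in ΔE3 and 19.9 CPM in ΔP4.

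Targets of ATF4, the transcription factor of the amino acid response, and genes of mitochondrial one-carbon metabolism lay higher in KO. Of 18 tested members, 12 lay above both wt replicates in all 3 clones, 9 by at least 1.5-fold, and 0 below, with a median log2 fold change of 0.66. *Ddit3* (CHOP), a factor of the stress response, was at 10.2 and 9.59 CPM in wt, 14.6 CPM in ΔE1, 20.98 CPM in ΔE3 and 25.2 CPM in ΔP4 (log2 fold change 1.04, standard error 0.24, DESeq2 adjusted p = 0.0075). *Aldh1l2*, which oxidises formyl-tetrahydrofolate in mitochondria, was at 5.42 and 5.01 CPM in wt, 7.25 CPM in ΔE1, 17.7 CPM in ΔE3 and 14.3 CPM in ΔP4 (log2 fold change 1.32, DESeq2 adjusted p = 0.021). *Nupr1*, a stress-induced chromatin protein, was at 5.56 and 6.22 CPM in wt, 8.17 CPM in ΔE1, 18.8 CPM in ΔE3 and 14.9 CPM in ΔP4 (log2 fold change 1.25, DESeq2 adjusted p = 0.023). ΔE1 was the closest to wt for all of these. *Slc7a11*, the cystine importer, was at 0.682 and 0.718 CPM in wt, 1.42 CPM in ΔE1, 5.000 CPM in ΔE3 and 1.12 CPM in ΔP4 and *Vldlr*, a lipoprotein receptor, at 7.54 and 8.12 CPM in wt, 8.62 CPM in ΔE1, 20.4 CPM in ΔE3 and 17.96 CPM in ΔP4. *Cth*, which makes cysteine, *Chac1*, which degrades glutathione, *Trib3*, a pseudokinase, and *Asns*, asparagine synthetase, had log2 fold changes of 0.96, 0.90, 0.77 and 0.73. These rested largely on ΔE3, without which they were 0.35, 0.36, 0.33 and 0.48, and that of *Slc7a11* was 0.85 in place of 1.84. *Atf4* itself was at 498 and 556 CPM in wt, 506 CPM in ΔE1, 777 CPM in ΔE3 and 582 CPM in ΔP4, and the groups overlapped. The factor is known to be controlled mainly in translation. EdgeR called 0 of the 18 after adjustment, 6 were higher by 1.5-fold at an unadjusted p under 0.05, and DESeq2 called 3. Without ΔE3, 5 members lay at least 1.5-fold above both wt replicates and the median was 0.34.

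Glutathione transferases, which conjugate glutathione to electrophiles, gave a similar count. Of 18 tested, 11 lay above both wt replicates in all clones, 5 by at least 1.5-fold, and 1, *Gsta3*, lay below, with a median log2 fold change of 0.35, or 0.17 without ΔE3. *Gstm7* was at 1.58 and 1.704 CPM in wt, 3.67 CPM in ΔE1, 4.61 CPM in ΔE3 and 2.74 CPM in ΔP4 (log2 fold change 1.16, DESeq2 adjusted p = 0.027) and *Gsto2*, an omega-class member, at 0.442 and 0.426 CPM in wt, 1.17 CPM in ΔE1, 1.08 CPM in ΔE3 and 0.728 CPM in ΔP4. *Gstm6*, *Gstk1* and *Gstt1* had log2 fold changes of 0.81, 0.67 and 0.64. The Gstm genes are close copies of each other, so reads may not be placed with certainty among them. Of 14 aldehyde dehydrogenases, 8 lay above and 1 below. *Aldh1l1*, the cytosolic counterpart of *Aldh1l2*, was at 2.502 and 2.07 CPM in wt, 6.06 CPM in ΔE1, 4.84 CPM in ΔE3 and 4.12 CPM in ΔP4 (log2 fold change 1.13, DESeq2 adjusted p = 0.0081), and *Aldh6a1* at 13.8 and 15.03 CPM in wt, 31.3 CPM in ΔE1, 33.05 CPM in ΔE3 and 28.1 CPM in ΔP4. *Aldh3a1* was the member below, at 2.31 and 2.34 CPM in wt, 1.11 CPM in ΔE1, 0.918 CPM in ΔE3 and 1.57 CPM in ΔP4. In these 3 lists the clones were above wt at unequal levels, with ΔE3 the highest in the ATF4 and glutathione transferase lists.

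**Figure D3:**
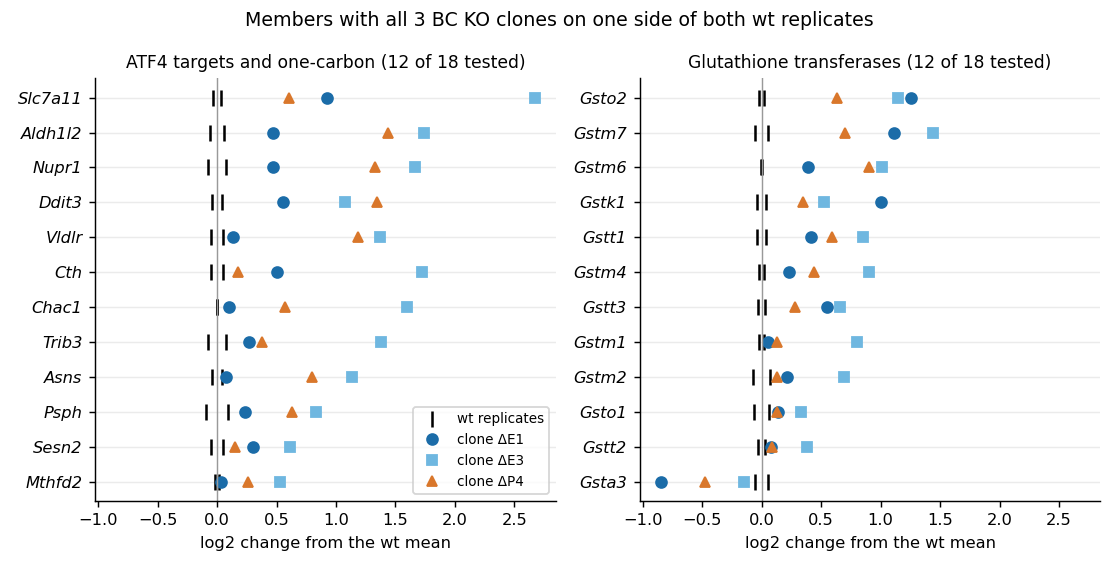
Log2 change from the wt mean (horizontal axis, TMM-scaled CPM with a pseudocount of 0.1) for the members of the ATF4 and one-carbon list (left) and the glutathione transferases (right) whose 3 KO clones lay on one side of both wt replicates. Black ticks are the wt replicates, circles ΔE1, squares ΔE3 and triangles ΔP4. All 12 genes on the left and 11 of 12 on the right lie above wt, with ΔE3 the highest clone for most.

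Other metabolic lists had smaller shares of members on one side. Of 25 lysosomal genes, 6 lay above both wt replicates and 0 below, and 2 did so by at least 1.5-fold. *Naglu*, a heparan sulfate glucosaminidase, was at 2.15 and 2.62 CPM in wt, 4.87 CPM in ΔE1, 6.699 CPM in ΔE3 and 7.84 CPM in ΔP4 (log2 fold change 1.44, DESeq2 adjusted p = 0.00032), and *Tfeb*, the factor that activates lysosomal genes, at 45.2 and 45.6 CPM in wt, 50.01 CPM in ΔE1, 108 CPM in ΔE3 and 64.3 CPM in ΔP4. In the pyruvate dehydrogenase and citric acid cycle list, 3 of 21 lay above and 1 below. *Pdk2*, a kinase that inhibits pyruvate dehydrogenase, was at 4.27 and 3.66 CPM in wt, 6.79 CPM in ΔE1, 8.11 CPM in ΔE3 and 6.51 CPM in ΔP4 (log2 fold change 0.85, DESeq2 adjusted p = 0.012), and *Idh2*, mitochondrial isocitrate dehydrogenase, at 126 and 128 CPM in wt, 134 CPM in ΔE1, 242 CPM in ΔE3 and 200.2 CPM in ΔP4. Of 22 glycolysis and hypoxia genes, 4 lay below and 1 above, with *Egln3* at 84.8 and 87.2 CPM in wt, 52.3 CPM in ΔE1, 51.98 CPM in ΔE3 and 58.3 CPM in ΔP4. Of 23 respiratory chain genes, 3 lay below and 0 above. Cholesterol synthesis had 1 of 19 above, fatty acid synthesis 0 of 10 on one side, the unfolded protein response 1 of 6 above and the NRF2 and metallothionein list 2 of 8 above. Cell cycle genes had 5 of 19 below and 1 above, p53 targets 1 of 19 below and 3 above, and ribosomal protein genes 12 of 75 below and 0 above, with a median of -0.14 (-0.25 without ΔE1) and none by 1.5-fold.

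Among chromatin complexes that work with or against KDM6A, 2 of 12 PRC2 genes lay above (*Suz12* and *Mtf2*) and of 18 PRC1 genes 3 lay below and 2 above, none by 1.5-fold, with medians of 0.15 and -0.03. The PRC2 median was 0.09 without ΔE1 and 0.22 without ΔP4, and the PRC1 median changed sign with single samples left out, between -0.07 without ΔE3 and 0.01 without ΔE1. Of 11 tested genes of the KDM6 and KMT2C/D list, *Kdm6a* and *Paxip1* lay below and *Rbbp5* above.

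Among imprinted genes, 6 of 16 tested maternally expressed members lay below both wt replicates, each by at least 1.5-fold, and 2 lay above. Besides *Meg3*, *Rian* and *Mirg* these were *Phlda2*, a brake on placental growth, at 104 and 121 CPM in wt, 64.3 CPM in ΔE1, 39.3 CPM in ΔE3 and 77.6 CPM in ΔP4, *Ascl2*, a trophoblast factor, at 11.4 and 12.1 CPM in wt, 9.84 CPM in ΔE1, 5.69 CPM in ΔE3 and 6.79 CPM in ΔP4, and *Cdkn1c*, an inhibitor of the cell cycle, at 56.7 and 53.5 CPM in wt, 50.9 CPM in ΔE1, 25.3 CPM in ΔE3 and 30.6 CPM in ΔP4. The last 3 lie in the Kcnq1 domain of chromosome 7, and DESeq2 called none of them (adjusted p from 0.052 to 0.31). The 2 members above were *Slc22a18*, a transporter gene of the same domain, at 1.59 and 1.96 CPM in wt, 2.49 CPM in ΔE1, 2.57 CPM in ΔE3 and 2.03 CPM in ΔP4, and *Grb10*, an adaptor that restrains insulin signalling, at 357 and 335 CPM in wt, 384 CPM in ΔE1, 685 CPM in ΔE3 and 529 CPM in ΔP4. Of 21 tested paternally expressed members, 5 lay below and 3 above. *Dlk1*, the Notch-related gene on the other side of the *Meg3* domain, was at 8.64 and 7.72 CPM in wt, 5.42 CPM in ΔE1, 3.49 CPM in ΔE3 and 5.32 CPM in ΔP4, and *Nap1l5* had a log2 fold change of -1.18 with ΔP4 close to wt, and of -2.24 without ΔP4.

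The Xlr genes, an X-linked family with roles known mainly in germ cells, were low in all 3 clones. Of 10 members in the files, 5 passed the filter and were tested, and all 5 lay below both wt replicates. A member near 0 in the clones can pass the filter of 1 TPM only through wt. The count is therefore partly set by the filter and is a description only. *Xlr3a* was at 5.83 and 7.11 CPM in wt, 0.293 CPM in ΔE1, 0.360 CPM in ΔE3 and 0.0822 CPM in ΔP4 (log2 fold change -4.72, standard error 0.50, edgeR adjusted p = 0.079, DESeq2 adjusted p = 3.5e-17). *Xlr3b* was at 1.996 and 1.36 CPM in wt, 0.293 CPM in ΔE1, 0.149 CPM in ΔE3 and 0.0352 CPM in ΔP4 (log2 fold change -3.39) and *Xlr3c* at 2.88 and 2.39 CPM in wt, 0.305 CPM in ΔE1, 0.484 CPM in ΔE3 and 0.141 CPM in ΔP4 (log2 fold change -3.09). *Xlr5a* had 63 and 95 fragments in wt and 0 in each clone, which is at least 26.2-fold lower when a clone is set to a floor of 3 fragments. *Xlr5c* had 20 and 15 fragments in wt and 1, 0 and 2 in the clones. These 5 genes lie between positions 73086293 and 73292976 of the X chromosome, are near-identical copies, and were counted from uniquely mapped reads, so the split among them is uncertain. The median of the fitted log2 fold changes was that of *Xlr5c*, -4.03, and it was -3.39 when *Xlr5a* and *Xlr5c*, with at most 2 fragments per clone, were set to the floor. EdgeR called *Xlr3a* when ΔP4 was left out (log2 fold change -4.31, adjusted p = 0.046), and DESeq2 called 4 of the 5.

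**Figure D4:**
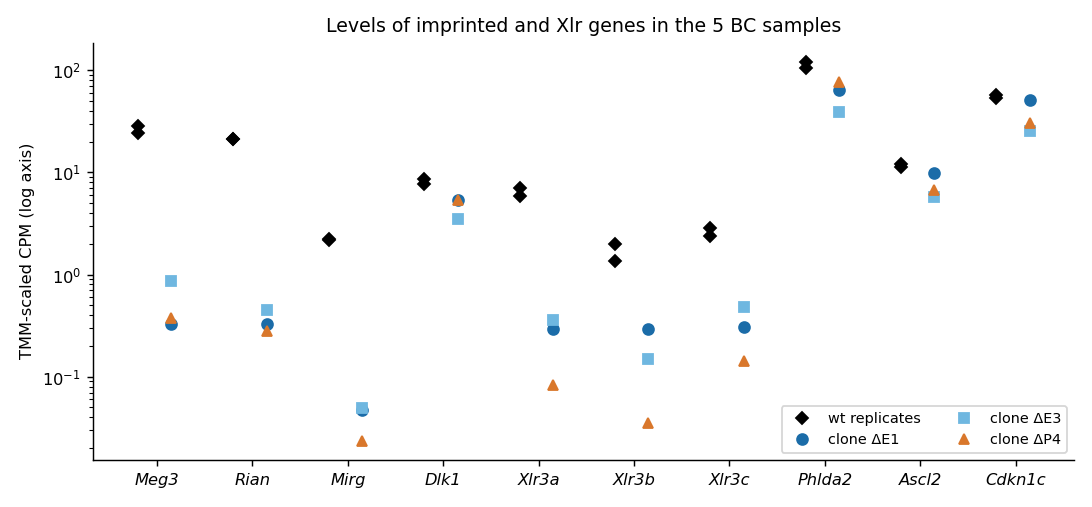
Level in TMM-scaled CPM (vertical log axis) of imprinted genes and Xlr genes in the 5 BC samples, with wt replicates as black diamonds, ΔE1 as circles, ΔE3 as squares and ΔP4 as triangles. *Meg3*, *Rian*, *Mirg* and the Xlr3 genes lie far below wt in every clone, whereas *Dlk1*, *Phlda2*, *Ascl2* and *Cdkn1c* lie closer to wt.

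Immune genes lay on both sides. Of 15 tested interferon and antigen presentation genes, 4 lay below and 4 above both wt replicates. *Irf1*, a factor of the interferon response, was at 76.2 and 78.01 CPM in wt, 45.4 CPM in ΔE1, 17.1 CPM in ΔE3 and 34.96 CPM in ΔP4 (log2 fold change -1.25, DESeq2 adjusted p = 0.025) and *Psmb8*, an immunoproteasome subunit, at 2.35 and 2.56 CPM in wt, 1.76 CPM in ΔE1, 0.459 CPM in ΔE3 and 1.67 CPM in ΔP4, while *Oas1a*, an oligoadenylate synthetase, lay above at 2.93 and 2.11 CPM in wt, 4.25 CPM in ΔE1, 5.73 CPM in ΔE3 and 4.83 CPM in ΔP4 (DESeq2 adjusted p = 0.034). Guanylate-binding proteins and immunity-related GTPases, a family added after the values had been seen, had 4 of 6 tested members below, with *Gbp4* at 7.35 and 8.02 CPM in wt, 1.99 CPM in ΔE1, 1.402 CPM in ΔE3 and 2.302 CPM in ΔP4 (log2 fold change -2.02, DESeq2 adjusted p = 2.8e-09) and *Irgm1* at 10.1 and 11.3 CPM in wt, 6.06 CPM in ΔE1, 1.67 CPM in ΔE3 and 2.38 CPM in ΔP4.

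Gene families gave further counts. Of 39 Hox genes in the files, 9 were tested, and 4 of these lay above both wt replicates, each by at least 1.5-fold, and 0 below. *Hoxc13*, a posterior gene, was at 1.18 and 1.03 CPM in wt, 2.83 CPM in ΔE1, 2.98 CPM in ΔE3 and 3.18 CPM in ΔP4 (log2 fold change 1.44, DESeq2 adjusted p = 0.00011). *Hoxa7* and *Hoxd1* had log2 fold changes of 0.90 and 0.76. These are low levels, as *Hoxc13* had a mean of 2.43 TPM. Of 5 Tbx genes 3 lay above (*Tbx3*, *Tbx20* and *Tbx6*), of 14 Klf genes 5 above and 1 below, of 14 Sox genes 3 above and 5 below, of 27 Fox genes 6 on each side, of 5 Gata genes 1 on each side, and of 4 Zic genes 1 above. Of 6 Rhox genes 1 lay on each side, of 2 Lhx genes 1 above, of 2 Pax genes 0 on one side, and of 11 Fgf ligands 4 above and 2 below. Semaphorins and plexins, guidance cues and their receptors, had 7 of 23 below and 3 above, Eph receptors and ephrins 4 of 17 below and 1 above, clustered protocadherins 4 of 17 above, claudins 2 of 9 above, and integrins 6 of 14 above and 3 below. ADAMTS proteases had 4 of 13 above and 3 below, collagens 2 of 21 above and 5 below, serpins 2 of 13 above and 4 below, replication-dependent histones 5 of 31 above and 3 below, Mage genes 1 of 7 on each side, and Zfp genes 38 of 310 above and 53 below.

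Some families were added after the values had been seen, and their counts are a description only. The ciliary and flagellar axoneme list also held Spag (sperm-associated antigen) genes, not all of which encode parts of the axoneme. Of its 32 tested members, 17 lay above both wt replicates, 12 by at least 1.5-fold, and 1 below, with a median log2 fold change of 0.37. *Spag4* was among those above, *Spag1* was the member below, and *Spag7* was the most abundant member of the list. *Cfap43*, a component of the axoneme, was at 5.105 and 4.94 CPM in wt, 10.48 CPM in ΔE1, 13.6 CPM in ΔE3 and 8.37 CPM in ΔP4 (log2 fold change 1.11, DESeq2 adjusted p = 0.0034). *Dnaic2*, a dynein intermediate chain, was at 1.14 and 1.02 CPM in wt, 1.701 CPM in ΔE1, 1.79 CPM in ΔE3 and 1.96 CPM in ΔP4. All 3 clones were above wt by a similar amount for *Dnaic2*, and ΔE3 was the highest for *Cfap43*. Of 8 connexins, which form gap junctions, the 5 of the Gjb class lay above and 0 below, with *Gjb1* at 9.19 and 8.31 CPM in wt, 22.7 CPM in ΔE1, 15.9 CPM in ΔE3 and 18.97 CPM in ΔP4. Adhesion G protein-coupled receptors had 5 of 10 above and 1 below, ABC transporters 7 of 23 above and 3 below, and PARP enzymes 4 of 12 below and 1 above.

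**Figure D5:**
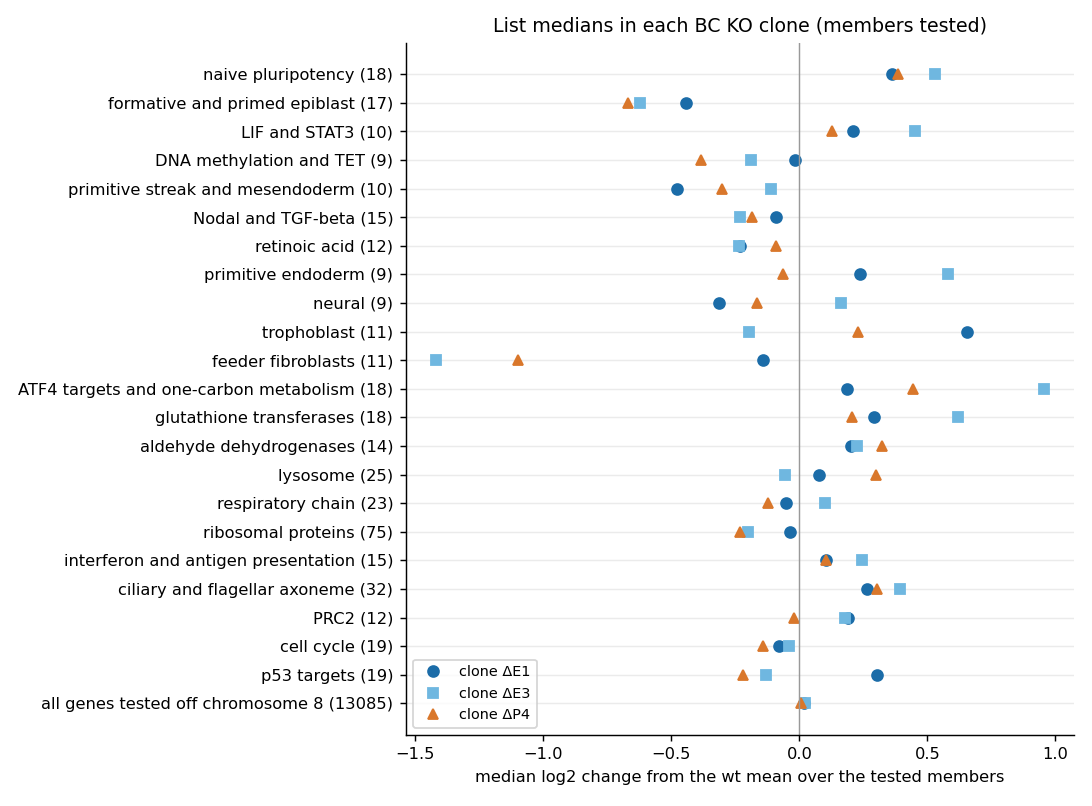
Median log2 change from the wt mean (horizontal axis, TMM-scaled CPM with a pseudocount of 0.1) over the tested members of selected lists (number of members in parentheses) in ΔE1 (circles), ΔE3 (squares) and ΔP4 (triangles). Medians of the naive and ATF4 lists lie right of 0 and those of the formative and feeder lists left of 0 in all clones, and the last line gives all genes tested off chromosome 8.

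Chromosome 8 genes are given apart, since their level and allelic share differed between the exonic clones and the other BC samples, as described. Of 719 tested genes, 36.9% lay below both wt replicates in all 3 clones and 2.36% above. The genes with the smallest p on the lower side included *Psmb10*, an immunoproteasome subunit, at 52.1 and 60.8 CPM in wt, 31.6 CPM in ΔE1, 28.7 CPM in ΔE3 and 33.6 CPM in ΔP4, and *Nanos3*, a germ cell RNA-binding protein, at 1.996 and 2.64 CPM in wt, 0.786 CPM in ΔE1, 0.658 CPM in ΔE3 and 0.599 CPM in ΔP4. These had levels in ΔP4 close to those in the exonic clones. *Klhdc4*, *Nip7* and *Armc6* had log2 fold changes of -0.84, -0.60 and -0.64. On the higher side, *Zfp42* (REX1), a marker of naive ES cells, was at 201 and 193 CPM in wt, 284 CPM in ΔE1, 347 CPM in ΔE3 and 264 CPM in ΔP4 (log2 fold change 0.60, DESeq2 adjusted p = 0.023). *Mlycd*, malonyl-CoA decarboxylase, was at 2.86 and 2.75 CPM in wt, 4.95 CPM in ΔE1, 8.62 CPM in ΔE3 and 6.32 CPM in ΔP4 and *Got1l1*, an aminotransferase homologue, at 8.73 and 11.3 CPM in wt, 17.8 CPM in ΔE1, 18.9 CPM in ΔE3 and 20.1 CPM in ΔP4. *Mef2b* and *Rasa3* had log2 fold changes of 0.73 and 0.54.

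The effect of the KO was tested for a difference between the BC and CB crosses in 1 model over 14297 genes. Over all of them edgeR called 7 genes with a lower effect in BC (0.049%) and 2 with a higher one (0.014%). In CB alone, edgeR called 0 of 13797 genes, 549 lower and 329 higher by 1.5-fold at an unadjusted p under 0.05. The 7 were *Rian*, *Mirg*, *Meg3*, *Rtl1*, *Gbp4*, *Egln3* and *R3hdml*, and the 2 were *Aldh6a1* and *Srgap1*. Of these, *Rtl1* was under the filter in BC and was tested only through its level in CB. *Meg3* was at 236 and 240.0 CPM in CB wt, 411 CPM in ΔE2.5, 316 CPM in ΔE2.7 and 343 CPM in ΔP2.1. Wt cells of BC thus had a much lower level than wt cells of CB, and the CB clones lay above CB wt. Among the lists, the naive genes had a median log2 fold change of 0.17 in CB, the formative genes 0.18, the ATF4 list 0.11, the glutathione transferases 0.14 and the feeder markers -0.46. The interaction was called for 0 of 18 naive and 0 of 17 formative genes by edgeR, at an unadjusted p under 0.05 and 1.5-fold for 2 and 5, and by DESeq2 for 1 and 3. For 18 ATF4 list genes, 18 glutathione transferases and 11 feeder markers, edgeR called 0 in each. The unadjusted counts were 6, 3 and 1, and those of DESeq2 were 1, 1 and 0. Over all 14297 genes, DESeq2 called the interaction for 554. No share over all genes is given at the unadjusted threshold, so the unadjusted counts of the 5 lists are a description only. *Sox3* had a log2 fold change of 0.06 in CB (interaction adjusted p = 0.13 from edgeR), *Dnmt3a* of 0.01 (0.19) and *Tbx3* of -0.29 (0.20). On chromosome 1, the median log2 change from CB wt was 0.50 in ΔE2.5, 0.43 in ΔE2.7 and -0.08 in ΔP2.1, and the median BL6 share was 52.5% and 52.4% in CB wt, 68.3% in ΔE2.5, 35.3% in ΔE2.7 and 48.6% in ΔP2.1. Each cross is 1 pair of wt and edited lines, so cross and line cannot be told apart.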

How the data were processed

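RNA-seq of male BC ES cells was analysed (wt, n = 2, KO, n = 3), with male CB cells (wt, n = 2, KO, n = 3) for the interaction test. The authors deposited an estimated count per gene of uniquely mapped fragments on either genome, BL6 or pseudo-cast, and of fragments with BL6 or cast SNPs, without normalization or pooling. The submitters' processing notes name Bowtie2 2.2.5 and mm10. The unstranded kit does not separate antisense genes. Of 24346 genes, 23310 were matched by symbol to GENCODE vM21 (GRCm38), while 1036 had no match and took the median length of 2283 bases in TPM. BC samples held 80321939 to 85698639 fragments.

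After rounding, edgeR 4.0.16 (quasi-likelihood, TMM, with limma 3.58.1 and R 4.3.3) was used on the estimated counts, with Benjamini-Hochberg adjustment and calls at an adjusted p under 0.05 and 1.5-fold. Each standard error given is the absolute log2 fold change divided by the square root of the F statistic of the edgeR test. Genes above 1 TPM in at least 1 sample were tested. DESeq2 1.42.0, the method of the study, was an alternative and gave no adjusted p for 1 gene. BL6 shares needed 20 or more SNP fragments per gene and sample. Tests were checked on simulated counts of independent samples with the same dispersion for every gene. In these data ΔE1 and ΔE3 stem from 1 editing event, so the check does not show how the tests perform on related clones. Alternatives were RLE and upper-quartile normalization, no filter or 5 TPM, ΔE1 and ΔE3 averaged, all 12 samples in the variance, chromosome 8 left out, and leaving out each sample. Named genes were those called, the 10 smallest p per direction among separated genes of at least 5 TPM, up to 5 separated members per list with the largest change and pathway-defining members, the KDM6 genes, and 5 per direction on chromosome 8. Further list members are named from their values, and some members are not reported here. The members and lists were chosen with earlier results of these data known. Python 3.11.15, pandas 2.3.3, numpy 2.4.6 and matplotlib 3.10.9 were used.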

Additional observations from a re-analysis of the deposited data

Results flagged for a closer look

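The effect of the KO differed between the crosses for 9 genes, by the interaction test of edgeR over 14297 genes with Benjamini-Hochberg adjustment, where a negative value means a lower effect in BC than in CB. For *Rian*, *Mirg* and *Meg3* the interaction log2 fold change was -6.18 (adjusted p = 2.4e-06), -6.30 (adjusted p = 5.6e-06) and -6.23 (adjusted p = 0.00015), as all 3 BC clones were below both BC wt replicates and all 3 CB clones above both CB wt replicates. For *Rtl1*, a paternally expressed gene of the same domain, it was -3.46 (adjusted p = 0.044), with 0.405 and 0.546 CPM in BC wt and 0.0495 to 0.129 CPM in the BC clones, against 2.45 and 2.03 CPM in CB wt and 4.06 to 5.28 CPM in the CB clones. *Rtl1* did not pass the filter of 1 TPM in the BC samples and had no test in BC alone. It entered the interaction test through its level in CB, and its BC values are low. The library kit keeps no strand, so fragments of *Rtl1* and its antisense transcript cannot be told apart.

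For *Egln3* the value was -1.45 (adjusted p = 0.034), from log2 fold changes of -0.67 in BC and 0.80 in CB. For *Gbp4* it was -2.49 (adjusted p = 0.044), from -2.02 and 0.49. For *R3hdml* it was -3.21 (adjusted p = 0.039), from -0.92 and 2.30. *Srgap1* had 1.56 (adjusted p = 0.044), from 1.07 and -0.48, and *Aldh6a1* had 1.52 (adjusted p = 0.044), from 1.09 and -0.42. In each of the 9 genes, the 3 clones lay on opposite sides of wt in BC and CB. Groups of 2 and 3 samples were not tested for outlying samples.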

How the results depend on the processing

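EdgeR called 3 genes lower and 1 higher. The lower count was 105 with DESeq2, 32 with all 12 samples in the variance estimate and 5 with no filter or with ΔE1 and ΔE3 averaged, and between 1 and 4 with each sample left out (1 without ΔE1). The higher count was 155 with DESeq2, 26 with all 12 samples, and 0 with any 1 sample left out. The 446 genes at least 1.5-fold lower and 710 higher in all clones, chromosome 8 included, became 1042 and 1268 with no filter, 231 and 362 above 5 TPM, and 129 and 196 when each clone had to pass on its own, an alternative chosen after seeing the data. With each sample left out they were 390 to 824 (683 without ΔE1, 824 without ΔP4) and 764 to 986. The median for chromosome 8 in the exonic clones was -0.49, with -0.45 under upper-quartile normalization, -0.42 with no filter, and -0.50 to -0.47 with samples left out. The 9 interaction genes became 554 with DESeq2 and 3 to 306 with each of the 10 samples left out (306 without ΔP2.1, 78 without ΔP4, 21 without ΔE3, 15 without ΔE1, 8 without ΔE2.7, 4 without ΔE2.5 and 3 without any 1 of the 4 wt samples). *Uty* (0.32) reversed to -0.52 without ΔP4 and reached 0.82 without ΔE3. Of 146 single genes followed through the settings, 39 had a log2 fold change that moved by over 1.5 times with 1 sample left out, 26 of them without ΔE3, 12 without ΔP4, 11 without ΔE1, 1 without wt replicate 1 and 3 without wt replicate 2. The cause of these shifts was not tested.

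EdgeR with its newer quasi-likelihood setting, added after seeing the data, gave 4 lower and 1 higher. Other settings left these counts within 1.5 times. A fit without a sample has fewer residual degrees of freedom, and where 1 wt replicate remains, it is assumed to vary like the clones. No paired analysis was possible because the BC KO clones carry clone names and share no replicate number with wt. Depth (80321939 to 85698639 fragments per BC library) limits the values of genes with few fragments, such as *Xlr5a* and *Xlr5c*, and the clones come from 2 editing events.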
